A study of Homo sapiens with 8 samples.

Results

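Genes of the mitotic spindle, the kinetochore and the centrosome were followed through a 5 h exposure of the human monocytic leukaemia line THP-1 to IPA-3 or FRAX-597, compounds that inhibit p21-activated kinases (PAKs). The members were chosen by gene symbol alone: kinesins (KIF), centromere proteins (CENP), the BUB, Aurora, polo-like (PLK) and NEK kinase families, the checkpoint kinase TTK, Ndc80 and Ska subunits, cyclins A and B, CDC20, CDC25B, CDC25C, the spindle bundler PRC1 and the centrosomal CEP family. This gave 128 of the 14884 named genes of the table. Of these, 123 are protein-coding, 3 are pseudogenes (CENPBD2P, CEP170P1 and CEP192P1) and 2 are long non-coding RNAs that share the symbol of a neighbour (KIF9-AS1 and CEP83-DT). Condensin (NCAP) and tubulin genes and TPX2, NUF2, SPC24 and SPC25, which the same choice covers, are not analysed here. The series concerns inhibition of PAK1 in myeloid leukaemia. All cells grew in RPMI-1640 with 10% fetal calf serum. There were 2 arrays of IPA-3 at 6 µg/mL, 2 arrays of FRAX-597 at 2 µg/mL and 4 arrays of the solvent DMSO at an equal volume, all at 5 h. IPA-3 is an allosteric PAK inhibitor that does not compete with ATP, and FRAX-597 competes with ATP at group I PAKs. Whether replicate arrays stem from separate cultures is not stated, and the p-values then cover array-to-array spread that may be technical. Only THP-1 was used, and PAK1 itself is not analysed here.

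In a dividing cell, cyclin B with CDK1 starts mitosis once CDC25 phosphatases remove inhibitory phosphates, and Aurora and polo-like kinases then mature the centrosomes and build the spindle. Kinetochores, assembled on centromeric CENPA nucleosomes, hold the microtubules through the Ndc80 and Ska complexes, while BUB1, BUB1B and TTK delay CDC20 until every chromosome is attached. PAK1 itself can be activated at centrosomes and phosphorylates Aurora A and PLK1. Many genes of this programme peak in G2 and mitosis under the MuvB, B-MYB and FOXM1 complexes, which act at a promoter element named CHR (cell cycle genes homology region), often beside CCAAT boxes bound by NF-Y. The label covers more than mitosis, since most of the 26 kinesins outside the mitotic group carry cargo or serve cilia, and many of the 38 CEP members belong to the interphase centriole or cilium.

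The promoters were examined because the symbols say nothing of them. RefSeq promoter windows (GRCh38.p14, from 250 bases before to 50 after the annotated start) were found for 108 of the 128 members and for 10749 of all genes tested. The letters TTTGAA of the CHR, on either strand, were in 35 of 108 member windows (32.4%) and in 11.8% of all windows. By symbol, 6 role groups were counted as mitotic (cyclins and regulators, mitotic kinases, checkpoint and Ndc80/Ska, centromere proteins, PRC1, mitotic kinesins). The split is coarse: the mitotic groups also hold the pseudogene CENPBD2P and the stress-responsive PLK3, and the other groups hold NEK2 and NEK6. The CHR share was 22 of 47 (46.8%) in the mitotic role groups and 13 of 61 (21.3%) in the other role groups. A match that began within the last 50 bases before the start was present in 11 of the 47 (23.4%) and in 1.82% of all windows. CCAAT, on either strand, was in 54 of 108 member windows and in 36.0% of all windows. Related genes outside the symbol rule, described further on, held these letters too. Other mitosis and centrosome genes had the CHR in 27 of 59 windows and CCAAT in 34 of 59. DNA replication genes had the CHR in 1 of 19 windows and CCAAT in 13 of 19. These are counts of letters in a window, not sites of binding. The 7 windows below are shown because they hold matches close to the start of members described with values further on, and run from 100 bases before the start to 30 bases from it, 5′ to 3′ on the gene's strand, with CHR and CCAAT matches of either strand in capitals.
CENPA (chr2:26785956-26786085, plus strand): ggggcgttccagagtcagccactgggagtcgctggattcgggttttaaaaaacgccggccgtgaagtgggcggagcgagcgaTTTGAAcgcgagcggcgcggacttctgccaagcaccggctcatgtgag
PLK1 (chr16:23678789-23678918, plus strand): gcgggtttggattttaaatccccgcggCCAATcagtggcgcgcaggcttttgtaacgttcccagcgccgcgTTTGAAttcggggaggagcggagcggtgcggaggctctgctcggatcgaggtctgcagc
BUB1B (chr15:40160969-40161098, plus strand): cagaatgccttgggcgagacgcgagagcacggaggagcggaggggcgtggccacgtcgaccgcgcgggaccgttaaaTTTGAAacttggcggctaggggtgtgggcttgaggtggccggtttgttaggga
PRC1 (chr15:90994506-90994635, minus strand): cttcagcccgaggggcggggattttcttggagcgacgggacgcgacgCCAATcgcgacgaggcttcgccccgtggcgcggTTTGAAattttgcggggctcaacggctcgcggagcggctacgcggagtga
CEP44 (chr4:174283811-174283940, plus strand): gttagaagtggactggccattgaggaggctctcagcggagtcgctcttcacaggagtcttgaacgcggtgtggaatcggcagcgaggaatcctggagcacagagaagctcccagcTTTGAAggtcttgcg
BUB1 (chr2:110678034-110678163, minus strand): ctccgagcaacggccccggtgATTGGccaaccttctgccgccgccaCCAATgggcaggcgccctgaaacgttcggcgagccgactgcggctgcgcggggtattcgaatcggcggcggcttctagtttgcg
SKA2 (chr17:59155157-59155286, minus strand): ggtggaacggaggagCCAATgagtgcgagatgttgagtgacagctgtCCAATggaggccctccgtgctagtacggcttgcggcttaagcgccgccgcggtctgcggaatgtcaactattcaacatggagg
The windows of CENPA and BUB1B show a CHR match and no CCAAT in the bases shown, those of PLK1 and PRC1 show a CCAAT upstream of a CHR match, and those of BUB1 and SKA2 show a pair of CCAAT matches and no CHR letters. In CEP44 the CHR letters lie after the start. AURKA and TTK have no entry in the promoter table.

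**Figure D1:**
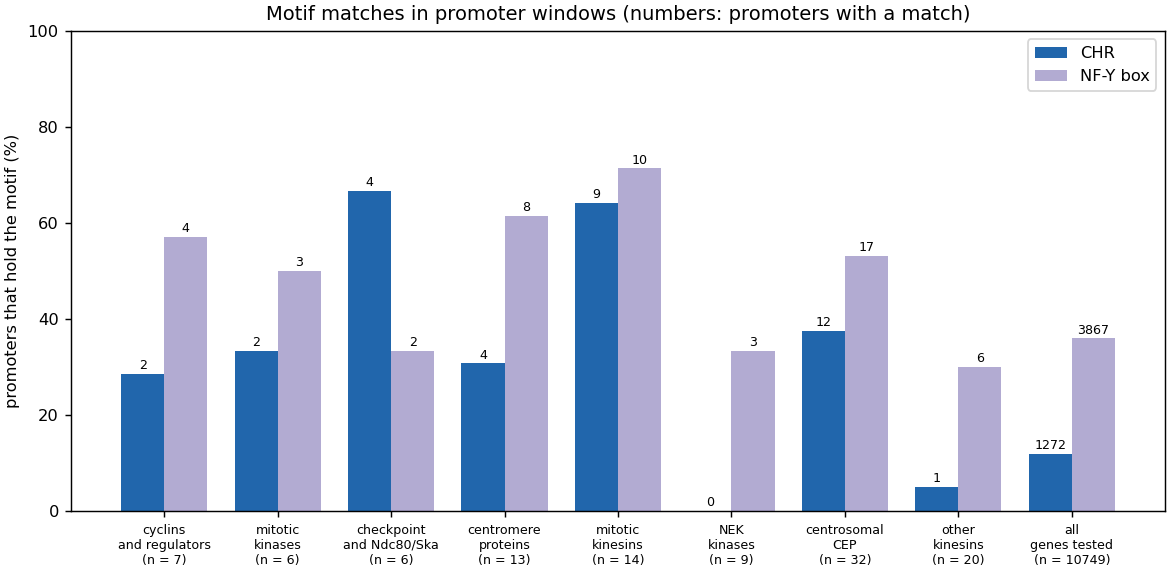
The vertical axis gives the percentage of RefSeq promoter windows that hold the CHR letters (dark bars) or the CCAAT box bound by NF-Y (light bars), on either strand, for each role group on the horizontal axis and for all genes tested; PRC1, alone in its group, is left out. Numbers above the bars count promoters with a match, 9 of 14 mitotic kinesins and 0 of 9 NEK kinases for the CHR.

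The 8 arrays lay in 2 sets on different scales, recognised from the values and not named in the labels. DMSO 1, DMSO 2 and both IPA-3 arrays had medians over all probes of 5.51 to 5.55, and DMSO 3, DMSO 4 and both FRAX-597 arrays of 6.00 to 6.05. Each compound was therefore compared with the 2 DMSO arrays of its own set in limma, with Benjamini-Hochberg adjustment over all 14884 genes and an adjusted p under 0.05 as the threshold. The monocyte and macrophage genes TYROBP (lowest 11.56, highest 12.45) and CD68 (lowest 11.67, highest 12.09) were high in every array, but only 5 of the 8 measured monocytic markers, of 15 listed, lay above the upper quartile of all probes in every array. CD14 lay between 6.27 and 7.44, CD4 between 6.55 and 8.95 and MPO between 5.82 and 6.46. Of 19 markers listed for other cell types 4 were measured, and 1 lay above the upper quartile in every array, the epithelial keratin KRT18 (8.91 to 9.74). KRT8, its usual partner, lay between 6.59 and 7.31 and the epithelial EPCAM between 4.58 and 4.98. The part of other cell types in the results was not tested. KIF5A, KIF6 and NEK5 were the only dim members, below the lower quartile of probe values in at least 1 set, and their changes are uncertain.

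None of the 128 members passed the threshold for IPA-3, for FRAX-597 or for the difference between them in limma. At an unadjusted p under 0.05, 3 members were higher and 6 lower with IPA-3 (over all genes 3.1% and 4.11%), which became 5 and 3 after quantile normalization and 3 and 3 with centred arrays. With FRAX-597, 6 were higher and 3 lower (over all genes 4.04% and 3.61%), also in both of those scalings. Over all genes the adjusted threshold was passed by 0.0269% on the higher and 0.00672% on the lower side for IPA-3, and by 0.121% and 0.0336% for FRAX-597. The count of 0 members held under all 17 alternative settings run (16 for the difference), where the smallest adjusted p of a member was 0.0628 for IPA-3 (KIF21A) and 0.0639 for FRAX-597 (CENPX), both with a replicate block, and 0.144 for the difference (pooled controls, a value that AURKA, BUB1 and other members shared). The 95% intervals bound the size of change only as far as the spread used in the fit holds. That spread was shared by both sets, and replicates of the second set differed more from each other. The FRAX-597 intervals may therefore be too narrow. They may also be too wide if DMSO and FRAX-597 arrays were paired, which the labels do not state. With the replicate block, whose pairs were taken from these values, 107 members had FRAX-597 intervals within 0.5 of 0 (10937 of 14884 genes). In the fit reported these were 82 and 8461. With the arrays of each set fitted alone, 0 genes of the whole table passed for FRAX-597 and 96 for IPA-3. The 95% interval of the log2 change lay within 1 of 0, that is within a doubling or halving, for 126 of 128 members with IPA-3 and for 126 with FRAX-597. The exceptions were KIF21A and CEP19 for IPA-3, and CEP19 and KIF5A for FRAX-597. Over all genes the interval lay within 1 of 0 for 14124 of 14884 with IPA-3 and for 14012 with FRAX-597. Narrower changes are less well covered: 87 members with IPA-3 and 82 with FRAX-597 had intervals within 0.5 of 0 (8191 and 8461 of 14884 genes). Data were simulated for IPA-3 with independent normal noise and the spread per gene from the fit, moderated by eBayes and shared by both sets. In them, 200 of 14884 genes were changed by known amounts. The fit recovered 86% of genes changed by 1 and 8% of genes changed by 0.5 on the log2 scale, with 13 false calls among 159. In the real IPA-3 fit only 4 genes passed on the higher and 1 on the lower side, so its cut on the unadjusted p was stricter. The simulated recovery may therefore overstate what the real fit could call.

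**Figure D2:**
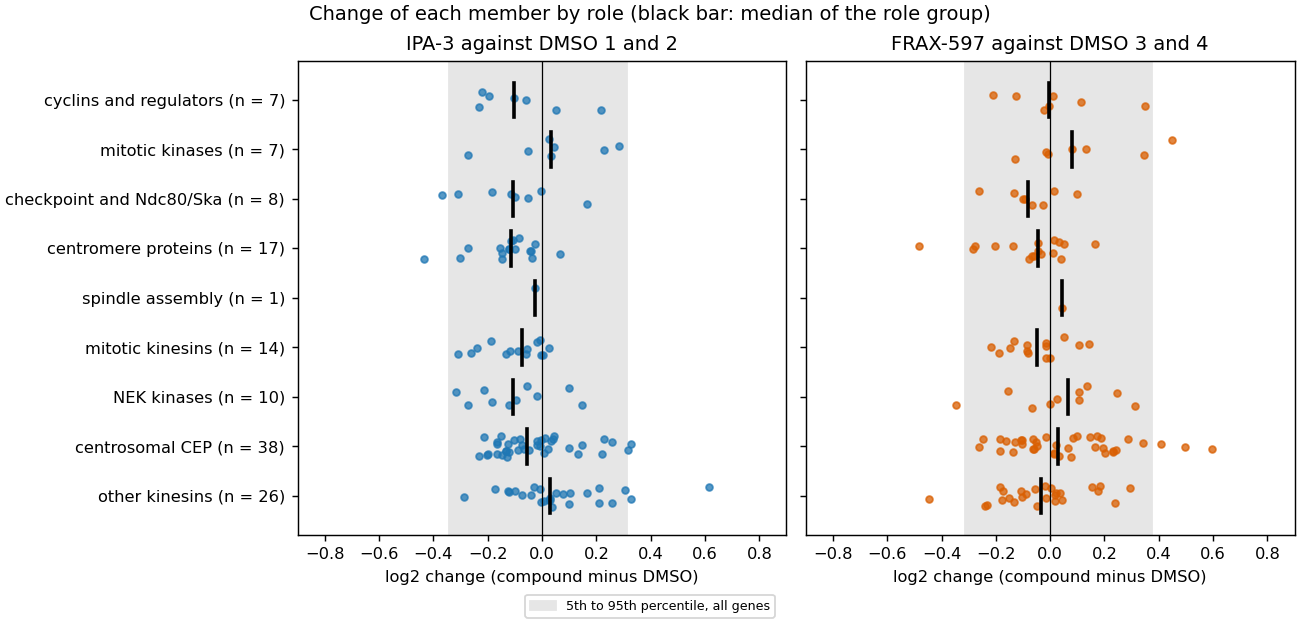
Each point is 1 member, its log2 change (compound minus the DMSO arrays of its set) on the horizontal axis and its role group on the vertical axis, with black bars at group medians and grey bands from the 5th to the 95th percentile of all genes. Most members lie inside the band, and the centromere proteins have a median of -0.11 with IPA-3 (-0.04 after quantile normalization) and -0.05 with FRAX-597.

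With IPA-3 the mitotic members leaned lower by small amounts that depended on scaling. Over all 128 members the median log2 change was -0.05, with 43 above and 85 below 0 (44.4% and 55.6% of all genes), beside a median of -0.02 over all genes, and quantile normalization moved the split to 64 above and 64 below. Both IPA-3 arrays lay under both DMSO arrays for 52 members (40.6%, against 28.3% of all genes), and above both for 20 (15.6%, against 19.3%). In the 54 members of the mitotic role groups the median was -0.09, 43 lay below 0 and 27 had both IPA-3 arrays under both DMSO arrays, whereas after quantile normalization the median was -0.03 with 30 below 0. The remaining 74 members had a median of -0.02, which was 0.01 after quantile normalization.

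Among the starters of mitosis, CDC25C, the phosphatase that activates CDK1, was at 7.68 and 7.68 in DMSO 1 and 2 and at 7.54 and 7.36 with IPA-3. The arrays did not overlap, and the log2 change was -0.23 (SE 0.11; limma adjusted p = 0.71). CCNB2, cyclin B2, read 8.20 and 8.22 against 8.005 and 7.98, again without overlap (change -0.22). CDC20, the activator of the anaphase-promoting complex, read 11.51 and 11.57 against 11.40 and 11.29 (change -0.20). CCNB1, cyclin B1, overlapped, at 9.07 and 9.03 against 9.07 and 9.14. Of the 7 cyclins and regulators, 5 lay below 0 (4 of 7 after quantile normalization).

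The mitotic kinases did not share a direction with IPA-3. PLK1, which drives centrosome maturation and mitotic entry and whose window above holds both motifs, was at 10.56 and 10.57 in DMSO and at 10.36 and 10.22 with IPA-3 (change -0.27, SE 0.12; limma adjusted p = 0.701). AURKA, Aurora A of the centrosome and spindle poles, read 8.03 and 7.91 against 7.95 and 8.09, so the groups overlapped (change 0.04). AURKB, the catalytic subunit of the chromosomal passenger complex, overlapped too (change -0.05). PLK3, a stress-responsive polo-like kinase, read 6.18 and 6.41 against 6.56 and 6.60 (change 0.28, SE 0.18; limma adjusted p = 0.787). The group was set by symbol and takes in every Aurora and polo-like member, the stress-responsive PLK3 among them, not only kinases of mitosis. In it 5 of the 7 lay above 0, with a median of 0.03 (6 of 7 and 0.11 after quantile normalization). That count is thus no direction of the kinases that drive mitosis.

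Among checkpoint and Ndc80/Ska genes, BUB1 and SKA2 had the lowest changes. BUB1, a checkpoint kinase of the kinetochore, was at 9.74 and 9.86 in DMSO and at 9.47 and 9.39 with IPA-3 (change -0.37, SE 0.14; limma adjusted p = 0.648). SKA2, which helps kinetochores track shortening microtubules, was at 7.89 and 7.996 against 7.70 and 7.57 (change -0.31, SE 0.11; limma adjusted p = 0.63). In both genes every IPA-3 array lay under every DMSO array. BUB1B, the checkpoint protein BUBR1, moved by only -0.05, and SKA3, another Ska subunit, lay higher in both IPA-3 arrays (10.12 and 10.13 against 10.01 and 9.91; change 0.17). In the group 7 of 8 lay below 0 with a median of -0.11, and 5 of 8 with a median of -0.04 after quantile normalization.

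Of the 17 CENP members, 16 lay below 0 with IPA-3 as deposited (55.6% of all genes), and 13 after quantile normalization. Both IPA-3 arrays lay under both DMSO arrays for 11 of the 17 (28.3% of all genes). The pseudogene CENPBD2P is counted among the 16 and the 11. CENPM, a subunit of the constitutive centromere network, was at 8.14 and 8.27 in DMSO and at 7.90 and 7.63 with IPA-3. Its change of -0.44 was the lowest of all members (SE 0.14; 95% interval -0.75 to -0.12; limma adjusted p = 0.574). CENPA, the histone variant that marks the centromere, read 8.23 and 8.30 against 8.11 and 7.87 (change -0.27, SE 0.12; limma adjusted p = 0.69). CENPC, which ties CENPA nucleosomes to the outer kinetochore, read 8.66 and 8.70 against 8.47 and 8.28 (change -0.30). CENPQ was the 1 member of the group above 0, at 0.07.

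The spindle motors and bundlers gave small changes. PRC1, which bundles the central spindle and whose window above holds both motifs, read 9.40 and 9.39 against 9.32 and 9.41 (change -0.03). Among 14 mitotic kinesins 12 lay below 0 with a median of -0.07, but after quantile normalization 7 did with a median of -0.01. KIF22, a chromosome-arm kinesin, was at 9.32 and 9.33 against 9.07 and 9.06 (change -0.26, SE 0.11; limma adjusted p = 0.694). KIF4B, a near copy of KIF4A, read 8.13 and 8.25 against 8.06 and 7.70. Its change of -0.31 was -0.48 without IPA-3 replicate 1 and -0.13 without IPA-3 replicate 2. KIF4A had a change of -0.19, and probes of such copies may share signal. KIF11, the motor that pushes the spindle poles apart, had a change of -0.09. Among the NEK kinases NEK6, which acts in spindle assembly, read 8.44 and 8.42 against 8.21 and 8.01 (change -0.32), and NEK2, which splits the centrosomes, read 7.43 and 7.49 against 7.12 and 7.25 (change -0.27).

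The largest change of any member with IPA-3 was a higher value of a transport kinesin. KIF21A, a kinesin that slows microtubule growth and is best known from neurons, was at 7.17 and 6.99 in DMSO and at 7.71 and 7.67 with IPA-3, 1.53-fold higher (log2 change 0.62, SE 0.18; 95% interval 0.20 to 1.03; limma adjusted p = 0.539). KIF13A, an endosome motor, read 5.94 and 5.81 against 6.25 and 6.16 (change 0.33). CEP290, a protein of the ciliary transition zone, read 8.02 and 7.92 against 8.26 and 8.31 (change 0.32, SE 0.11; limma adjusted p = 0.628). The 38 CEP members had a median of -0.06 with 14 above 0 (0.00 and 19 after quantile normalization), and the 26 other kinesins a median of 0.03 with 16 above 0.

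**Figure D3:**
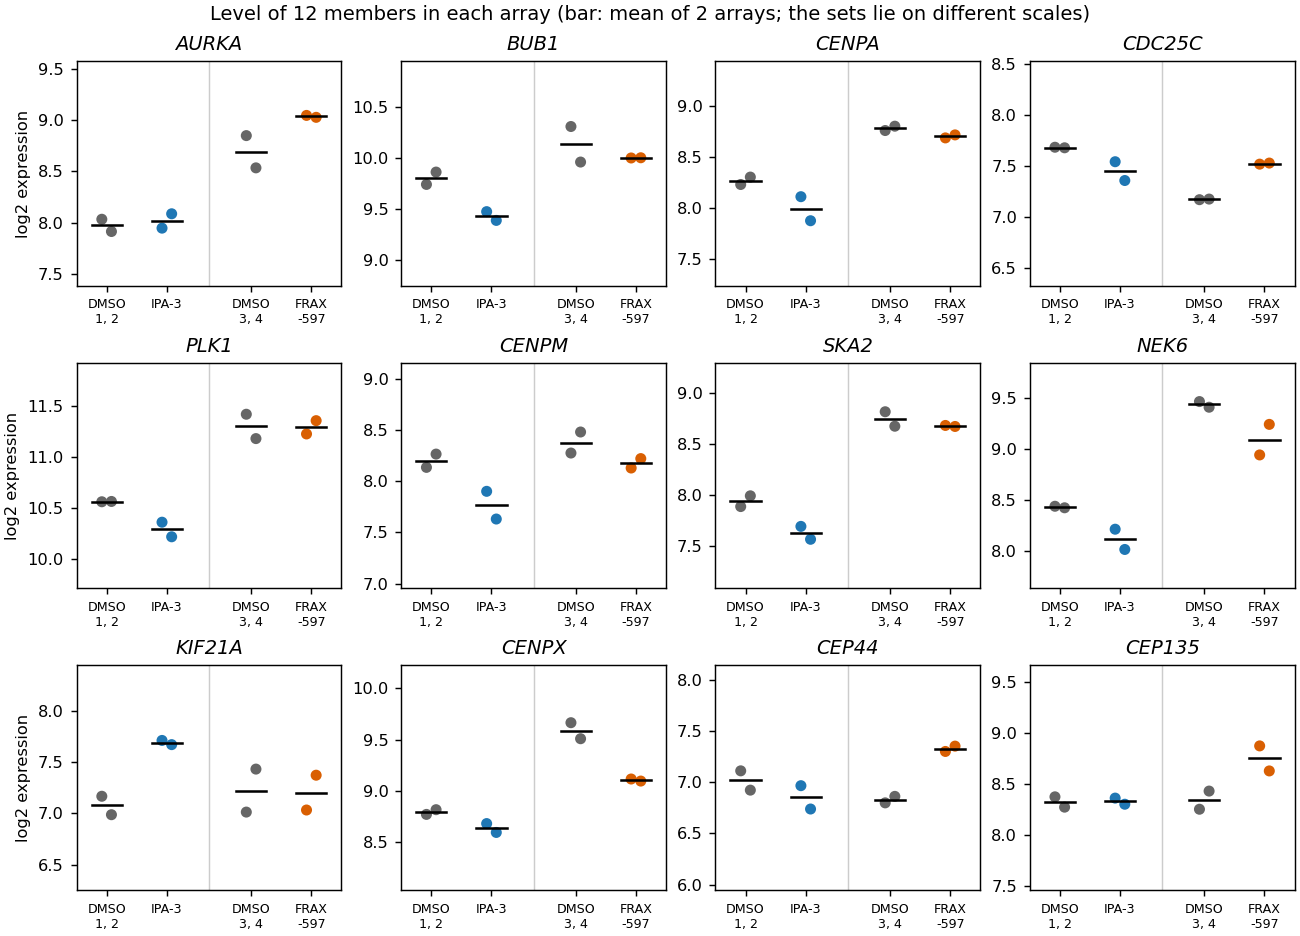
Each panel gives the log2 expression of 1 member on the vertical axis in the 8 arrays (points), with bars at the mean of 2 arrays; grey points are DMSO, blue IPA-3 and orange FRAX-597, and every vertical axis spans the same range. CDC25C lies lower with IPA-3 and higher with FRAX-597 than the DMSO arrays of the same set, and KIF21A lies higher with IPA-3 alone of the compounds, at 7.71 and 7.67.

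With FRAX-597 the members as a whole did not lean. The median log2 change was -0.02, equal to that of all genes (-0.02), with 59 above and 69 below 0 (45.3% and 54.7% of all genes). After quantile normalization 56 lay above and 72 below 0. Both FRAX-597 arrays lay above both DMSO arrays for 23 members (18.0%, against 13.0% of all genes) and under both for 17 (13.3%, against 17.8%). The mitotic role groups had a median of -0.03 with 34 of 54 below 0, fewer than the 43 with IPA-3. After quantile normalization the median was -0.05 with 38 below 0 (70.4%, against 54.7% of all genes). With IPA-3 that scaling gave 30 of 54 (55.6%, against 51.2% of all genes). Which compound had more mitotic members below 0 thus turned with the scaling. Among the 38 CEP members, 22 lay above 0 and 12 had both FRAX-597 arrays above both DMSO arrays.

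Among the cyclins and regulators CDC25C had the smallest p for FRAX-597, and among the mitotic kinases AURKA. CDC25C was at 7.17 and 7.17 in DMSO 3 and 4 and at 7.52 and 7.53 with FRAX-597, a 1.28-fold difference (log2 change 0.35, SE 0.11; 95% interval 0.10 to 0.60; limma adjusted p = 0.442). AURKA was at 8.85 and 8.54 against 9.05 and 9.03 (change 0.35, SE 0.14; limma adjusted p = 0.607), so the DMSO arrays differed from each other by about as much as the groups did. PLK3 read 7.05 and 6.99 against 7.75 and 7.19 (change 0.45, SE 0.18; limma adjusted p = 0.627), and 1 FRAX-597 array carried most of it. PLK1 (change -0.01), AURKB (-0.02), CCNB2 (0.01) and CDC20 (-0.02) lay within 0.05 of 0.

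At the kinetochore CENPX had the smallest p of all members. CENPX, a small histone-fold protein that pairs with CENPS at centromeres and in DNA repair, was at 9.66 and 9.51 in DMSO and at 9.11 and 9.09 with FRAX-597, 1.398-fold lower (log2 change -0.48, SE 0.11; 95% interval -0.73 to -0.23; limma adjusted p = 0.237). BUB1B read 9.37 and 9.23 against 9.01 and 9.07 (change -0.26, SE 0.11; limma adjusted p = 0.615). BUB1 overlapped, at 10.31 and 9.96 against 10.00 and 10.00 (change -0.13). CENPA read 8.76 and 8.80 against 8.69 and 8.72 (change -0.08). Of the 17 CENP members 11 lay below 0 and of the 8 checkpoint and Ndc80/Ska members 6 (13 and 6 after quantile normalization).

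CEP44, CEP120 and CEP135 had the smallest p of the CEP members with FRAX-597. CEP44, a centriole protein, was at 6.80 and 6.86 in DMSO and at 7.30 and 7.35 with FRAX-597, 1.41-fold higher without overlap (log2 change 0.50, SE 0.12; 95% interval 0.21 to 0.79; limma adjusted p = 0.313). CEP135, which builds the centriole cartwheel, read 8.25 and 8.43 against 8.87 and 8.63 (change 0.41, SE 0.13; limma adjusted p = 0.449). CEP120, needed for centriole elongation, read 8.49 and 8.42 against 8.84 and 8.75 (change 0.34, SE 0.10; limma adjusted p = 0.422). CEP63, which recruits CEP152 to the mother centriole, read 7.92 and 7.92 against 8.17 and 8.15 (change 0.24), while CEP152 itself overlapped (change -0.05). CEP97, part of the cap on centriole ends, lay lower (8.91 and 8.78 against 8.51 and 8.68; change -0.25).

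Motors and NEK kinases spread around 0 with FRAX-597. Of 14 mitotic kinesins 10 lay below 0, with a median of -0.05 and a range from -0.22 (KIF2A, a microtubule depolymerase) to 0.14 (KIF18A). The KIF2A value was -0.09 without FRAX-597 replicate 1 and -0.35 without FRAX-597 replicate 2. KIF5A, a neuronal transport kinesin, had the lowest change of the other kinesins, -0.45 (SE 0.29), from levels of 5.06 and 4.99 near the lower quartile of all probes. NEK6 read 9.46 and 9.41 against 8.94 and 9.24 (change -0.35, SE 0.13; limma adjusted p = 0.607). The widest error belonged to CEP19, a centriole and cilium protein. It read 7.002 and 6.51 in DMSO and 7.97 and 6.73 with FRAX-597 (change 0.59; 95% interval -0.31 to 1.495).

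The compounds were then set against each other through the difference of their changes, FRAX-597 minus IPA-3, each within its own set. The doses differed (2 and 6 µg/mL), so this compares the treatments as given. None of the 128 members passed in limma, and over all genes 0.0134% passed on the higher and 0.0% on the lower side. At an unadjusted p under 0.05, 3 members were higher and 1 lower (3.43% and 2.67% of all genes), against 2 and 3 with centred arrays. CDC25C had the smallest p, with a difference of 0.58 (SE 0.15; 95% interval 0.23 to 0.94; limma adjusted p = 0.596). Its mean was 7.68 in DMSO 1 and 2 and 7.17 in DMSO 3 and 4, although the second set lies on the higher scale. With the compounds it was 7.45 (IPA-3) and 7.52 (FRAX-597), so the opposite changes start from unlike DMSO levels. The part of those levels in the difference was not tested. CEP44 differed by 0.66 (SE 0.18; limma adjusted p = 0.606), NEK2 by 0.41 (SE 0.17; limma adjusted p = 0.798) and KIF21A by -0.64 (SE 0.25; limma adjusted p = 0.785). For 121 of 128 members (12529 of 14884 genes) the 95% interval of the difference lay within 1 of 0. This still leaves room for differences under a doubling.

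Arrays of both compounds stood on the same side of their DMSO arrays for 13 members. The 8 lower with both were NEK6, CENPX, CENPM, CENPA, BUB1B, KIF2A, KIF16B and KIF1C (6.25% of members, against 5.97% of all genes). The 5 higher with both were CEP120, CEP290, CEP68, NEK3 and PLK3 (3.91%, against 3.16%). The 6 lower with IPA-3 and higher with FRAX-597 were CDC25C, NEK2, CEP41, CEP57, CEP70 and CEP192P1 (4.69%, against 2.96%), and KIF26A alone showed the reverse (0.781%, against 2.95%). The shares of the same-side patterns lie near those of all genes. Those of the opposite patterns rest on 6 members and 1 member, too few to read. Across the 128 members the changes under the compounds, which share no DMSO array, correlated at r = 0.14, beside 0.19 over all genes; genes are not independent replicates.

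**Figure D4:**
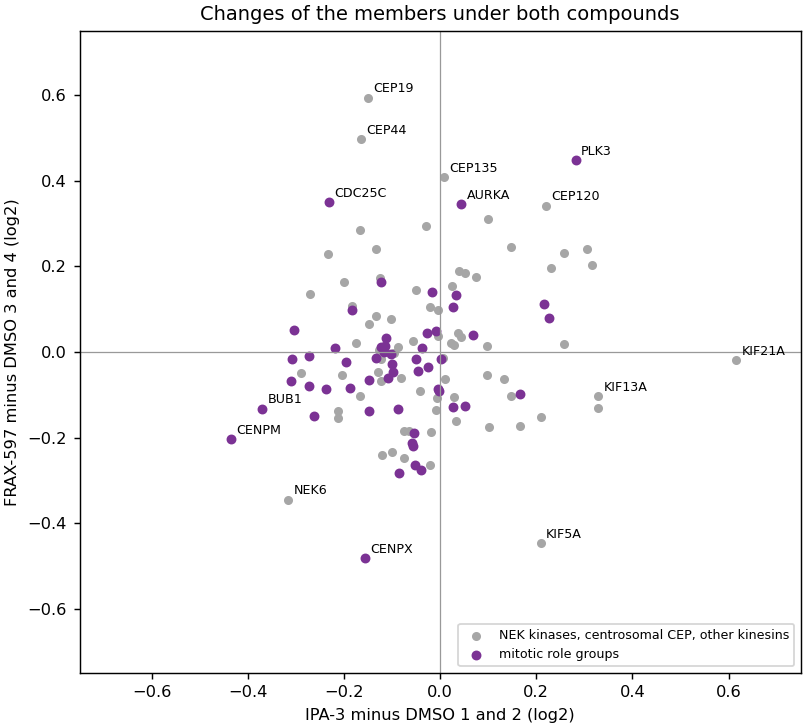
Each point is 1 of the 128 members, with its log2 change with IPA-3 (against DMSO 1 and 2) on the horizontal axis and with FRAX-597 (against DMSO 3 and 4) on the vertical axis; purple points are the mitotic role groups. CDC25C and CEP44 lie at upper left, KIF21A at far right, and NEK6 and CENPX at lower left. Below 0 on both axes lie 51 of 128 members, beside 4781 of 14884 genes (counts that rest on the scaling as deposited).

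Replicates of the second set differed from each other by more than those of the first, in these genes as over all genes. DMSO 3 minus DMSO 4 had an SD of 0.25 over the members and FRAX-597 1 minus FRAX-597 2 of 0.30, against 0.11 and 0.18 for the corresponding pairs of the first set. Over all genes the SDs were 0.34 and 0.41 in the second set and 0.18 and 0.22 in the first. In the second set both differences ran together, with r = 0.68 across members (0.65 across all genes), and in the first set they did not (r = -0.16). DMSO 3 and DMSO 4 differed by more than 0.4 in 17 members, and in 16 of them FRAX-597 1 and FRAX-597 2 differed in the same direction. Over all genes this was so for 2123 of 2413. KIF21B, a kinesin of immune cells and neurons, read 7.09 in DMSO 3 and 7.90 in DMSO 4, and 7.22 and 7.78 with FRAX-597. CEP72, a centriolar satellite protein, read 8.39 and 9.10, and 8.34 and 9.23. CEP126 went the other way, with 6.59 and 5.84, and 6.72 and 6.18. For the mitotic kinesin KIF14, required for cytokinesis, the arrays read 9.50 and 9.79, and 9.30 and 9.95. The labels do not tie these arrays together, and what the arrays share was not tested.

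**Figure D5:**
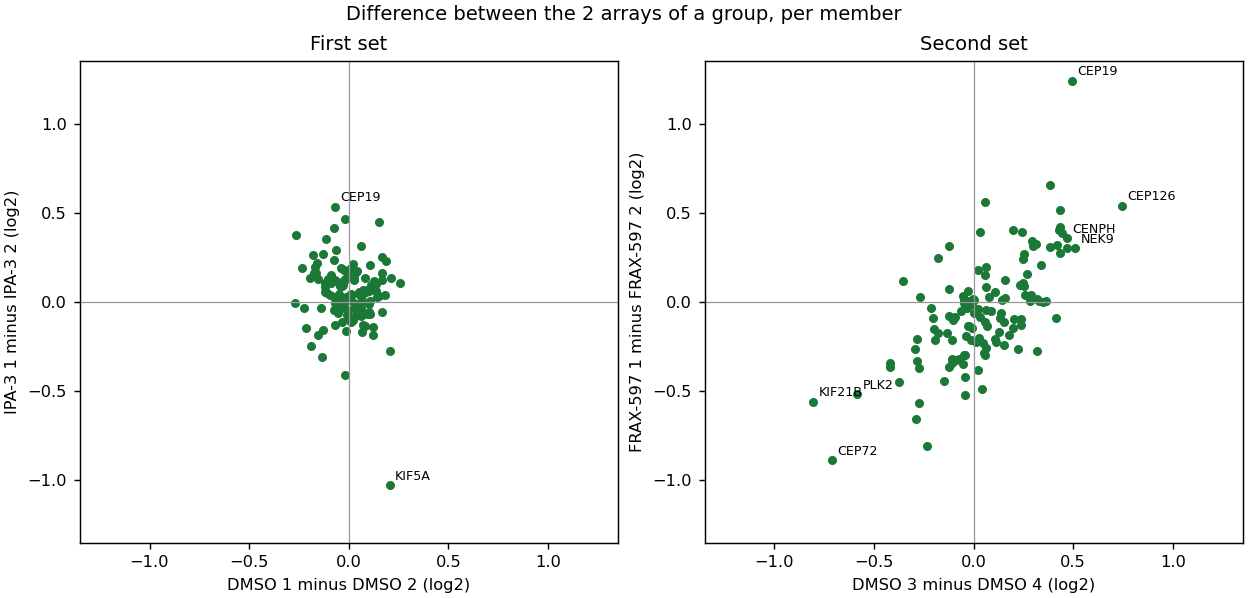
Each point is 1 of the 128 members; the horizontal axis gives the log2 difference between the 2 DMSO arrays of a set and the vertical axis the log2 difference between the 2 compound arrays of that set. Points of the first set gather around 0, with KIF5A apart at -1.03 on the vertical axis, and those of the second set spread along a rising diagonal (r = 0.68).

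Levels under DMSO differed between the sets. DMSO 3 and 4 against DMSO 1 and 2 gave 63 members higher and 13 lower at an adjusted p under 0.05 in limma (over all genes 54.9% and 4.98%), counts that include a shift of 0.48 in the median of all genes. With arrays centred on their median 17 members were higher and 37 lower, and after quantile normalization 23 and 27, so the balance turned with the scaling. CCNB2 stood at 8.20 and 8.22 in DMSO 1 and 2 and at 9.86 and 9.95 in DMSO 3 and 4, a difference of 1.69 (1.21 beyond the shift of all genes). CENPV differed by 1.77, CEP170P1 by 1.95, AURKB by 1.14 and NEK2 by 1.18. Lower values in DMSO 3 and 4 were found for CEP19 (-1.17), KIF3A (-0.90), CEP89 (-0.76), CENPH (-0.67) and CDC25C (-0.51). The CEP family had a median difference of 0.08 with 16 of 38 below 0, against a median of 0.48 with 16.3% below 0 over all genes, and after quantile normalization its median was -0.28 with 27 below 0. The set and the state of the cells cannot be told apart here.

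Other genes of the same pathway, from a list outside the symbol rule, were also examined. Of 106 listed genes 69 were measured, and 0 passed in limma for either compound, with 3 lower for IPA-3 and 2 lower for FRAX-597 at an unadjusted p under 0.05, shares near those of all genes (4.11% and 3.61%). With IPA-3, 59 of 69 lay below 0 with a median of -0.09 (40 and -0.04 after quantile normalization). CKS2, a CDK1 subunit, had the lowest change of the 3, -0.54 (SE 0.20; limma adjusted p = 0.654), followed by RACGAP1, a cytokinesis regulator, at -0.37 and CDC23, an anaphase-promoting complex subunit, at -0.36. With FRAX-597, 45 of 69 lay below 0 with a median of -0.05, and the pair at an unadjusted p under 0.05 were GTSE1 (-0.32) and ANAPC1 (-0.25). DNA replication genes, measured for scale, had medians of -0.19 with IPA-3 (20 of 23 below 0) and -0.29 with FRAX-597 (21 of 23 below 0), with 0 passing in limma. At an unadjusted p under 0.05, 5 of 23 were lower with IPA-3 and 8 with FRAX-597 (4.11% and 3.61% of all genes). After quantile normalization the medians were -0.13 and -0.29 and these counts 2 and 11. The difference between replication and spindle genes was not tested.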

How the data were processed

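Total RNA was labelled with a whole-transcript kit and hybridised to 1-colour Affymetrix arrays, per the labels. The deposited table holds the authors' log2 values for 53617 probes in 8 arrays; per the submitters' processing notes Affymetrix Expression Console and Transcriptome Analysis Console were used, and the summarisation and normalization are not given in the sources used here. Arrays have no read depth, so their number limits the precision.

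The platform annotation named 1 gene for 16098 probes, several for 0 and none for 37519. The probe with the highest mean was kept for each of 14884 genes (3 members had more than 1 probe), and no filter on low values was applied. A linear model (lmFit, then eBayes, of limma 3.58.1 under R 4.3.3) was fitted over 4 groups: DMSO 1 and 2, IPA-3, DMSO 3 and 4, and FRAX-597. All 128 members matched RefSeq gene identifiers, used for names and types. The fit was tested on simulated data.

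Members, lists and contrasts were chosen with earlier results of these data known. Members named are the 4 markers AURKA, BUB1, CENPA and CDC25C; the largest changes in arrays that did not overlap; the 2 smallest p per role group and compound; and the 4 largest differences between compounds each way. The text leaves out some of these. Others were chosen after their values were seen, for their role or as contrast: AURKB, CCNB1, CCNB2, CENPQ, CENPH, CENPV, CEP63, CEP72, CEP89, CEP152, CEP170P1, KIF3A, KIF4A, KIF11, KIF14, KIF18A, KIF21B and SKA3. The 17 alternatives covered controls, scaling, probes, a filter, moderation, a block and each array left out.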

Additional observations from a re-analysis of the deposited data

Results flagged for a closer look

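CEP126, a centrosome and cilium protein, was set apart by 1 of its 4 DMSO arrays. The gap between the highest array and the next was 0.833 of the whole range of the 4 arrays, past the critical value for 4 samples, with 5.76 and 5.70 in DMSO 1 and 2, 5.84 in DMSO 4 and 6.59 in DMSO 3. These 4 arrays mix both array sets, whose medians over all genes differ by 0.48, and the highest array belongs to the set on the higher scale. The FRAX-597 arrays read 6.72 and 6.18. Such a gap is found by chance in about 1 of 20 groups, and 41 members were examined for it.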

How the results depend on the processing

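In all 17 alternatives 0 members passed for IPA-3 and FRAX-597, and in the 16 that allow it 0 passed for their difference; the arrays of each set fitted alone give no difference. Of the named values recomputed, 955 kept their direction, none gained a call and 20 changed sign, all uncalled in limma. Much of this agreement was fixed in advance. Fitting each set alone, moderation with an intensity trend, the filter, the block and leaving out an array of the other set cannot move a compound's log2 change. Averaging probes can move it only in the 3 members with more than 1 probe. The IPA-3 median of the members (-0.05) was -0.25 with all DMSO arrays pooled, where all genes had -0.26, -0.00030 after quantile normalization and -0.094 in the mitotic role groups only, an alternative chosen after seeing the data; leaving out single arrays gave -0.079 to -0.037, the ends being without IPA-3 replicate 1 and 2. The FRAX-597 median (-0.02) was 0.21 with pooled controls, where all genes had 0.23, and -0.068 to 0.024 with single arrays left out. Pooled controls mix both sets and turned the IPA-3 change of AURKA to -0.32, CDC25C to 0.023 and PLK3 to -0.081, the FRAX-597 change of BUB1 to 0.033, BUB1B to 0.255, CENPA to 0.18, CENPP to 0.0065, KIF15 to 0.054, KIF2A to 0.21, KIF5A to 0.052 and NEK6 to 0.16, and the difference of CEP19 to -0.42, KIF13A to 0.076 and KIF5A to 0.34. Quantile normalization turned PRC1 with IPA-3 to 0.037. With single arrays left out, AURKA with IPA-3 ran from -0.027 to 0.11, PRC1 from -0.071 to 0.016, BUB1 with FRAX-597 from -0.31 to 0.041 and PRC1 from -1e-05 to 0.087. The cause of these sign changes was not tested. A replicate block (DMSO 3 with FRAX-597 1, DMSO 4 with FRAX-597 2; pairs taken from these values, not from the labels) gave 0 members called for IPA-3 and 0 for FRAX-597, with 72 and 202 genes called over all genes, and changed no call of a member. Calls over all genes ran from 0 to 96 for IPA-3 (5 in the fit reported), from 0 to 227 for FRAX-597 (23) and from 0 to 38 for the difference (2). A lone array left in a group was assumed to vary like the other groups.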
